A study of Mus musculus with 10 samples.

Results

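Macrophage marker genes and genes of the complement cascade were examined in hearts of male mice exposed to anti-Müllerian hormone (AMH) before birth, a treatment labelled PAMH, for prenatal AMH. The set was a fixed list of 35 genes, taken by symbol from the 55335 genes of the deposited table with no requirement on their level. It comprised 22 macrophage and leukocyte genes and 13 complement genes. The PAMH group held 5 male offspring hearts from dams given AMH during pregnancy, and the control group held 5 male offspring hearts from dams given phosphate-buffered saline. All 10 samples were labelled wild type. The labels give neither the age of the mice nor the litter or dam behind each heart, and a p-value here reflects only the variation among these samples, part of which may be technical. RNA abundance was read as FPKM, a fragment count scaled by transcript length and by library size.

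Macrophages of the heart include long-lived resident cells, many of which carry LYVE1, TIMD4 and FOLR2 and renew themselves with little input from blood, and cells derived from CCR2-positive monocytes. They take up dying cells and debris, and they are a main source of C1q, the recognition molecule of the classical complement pathway. C1q works with the proteases C1r and C1s, which cleave C4 and C2 so that C3 can be cleaved. The alternative pathway, driven by factors B and D, amplifies C3 cleavage. The fragments C3a and C5a act on receptors of myeloid cells, while SERPING1 (C1 inhibitor) and CD55 restrain the cascade. C3 and C4 are made largely by the liver, and also by stromal and other cells of many tissues.

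The tissue label was met by its markers, with a sum of 7 cardiomyocyte genes of 7310 to 12544 FPKM in PAMH and 8279 to 10482 FPKM in control hearts. Of 9 defining macrophage genes 8 averaged at least 1 FPKM over the 10 samples, and the Fc receptor gene Fcgr1 did not. The FPKM of all genes summed to 654350 to 713055 in PAMH and 691934 to 717453 in control samples, with unknown depth. PAMH replicate 4 had the fewest genes above 0, 16113 against 18037 to 21097 in the other samples. Its hemoglobin and Alas2 sum of 863 FPKM compared with 97.3 to 250.1 FPKM in the other PAMH samples and 112 to 437 FPKM in controls. A set of 6 mesothelial markers comprised genes of the cells that cover the heart's surface. It summed to 2.85 to 7.38 FPKM in PAMH and 0.404 to 1.21 FPKM in control hearts. For 5 of the 6 every PAMH value lay above every control value, but only 1 of the 6 averaged at least 1 FPKM and was tested. Of all tested genes 6.74% were higher without overlap, a share that does not cover the 5 untested markers. The tested marker, the uroplakin gene Upk3b, rose to 2.04 ± 0.787 FPKM in PAMH hearts, against 0.293 ± 0.139 FPKM in controls (SD, n = 5 each; log2 fold change 1.201, adjusted p = 0.00190), and entered the test through its PAMH values. The part of these surface cells in the differences described here was not tested.

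Of the 35 genes, 28 averaged at least 1 FPKM and were tested, and 7 were not. Cd68 and C3 were higher in PAMH hearts, none was lower and 26 did not pass (limma, adjusted p under 0.05). These 2 made up 7.14% of those tested, where 584 of all 9439 tested genes (6.19%) were called, 4.95% higher and 1.24% lower, and the share called was thus near the background. Of the calls over all genes 467 were higher and 117 lower in PAMH hearts, against 218 and 212 with median ratio scaling and 234 and 246 with quantile normalization. Groups that did not overlap were found for Cd68, C3 and Timd4, which is 10.7% of those tested against 8.44% of all genes (6.74% higher), and Timd4 had reached the 1 FPKM mean only through its PAMH values. At an unadjusted p under 0.05 there were 15 genes, 13 positive and 2 negative, or 53.6% against 24.0% of all tested genes (19.6% positive and 4.34% negative). That share was 32.1% against 20.6% of all genes with median ratio scaling, 32.1% against 21.2% with quantile normalization, and 25.9% against 21.4% without PAMH replicates 4 and 5. The genes were chosen with earlier results of these data known, so these shares describe the list and do not test it. The median log2 fold change was 0.11, beside 0.07 for all tested genes, with 16 positive (57.1%, against 67.3% of all tested genes) and 12 negative. The fold changes had both signs within each class, with 9 positive and 8 negative among 17 macrophage and leukocyte genes and 7 positive and 4 negative among 11 complement genes.

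**Figure D1:**
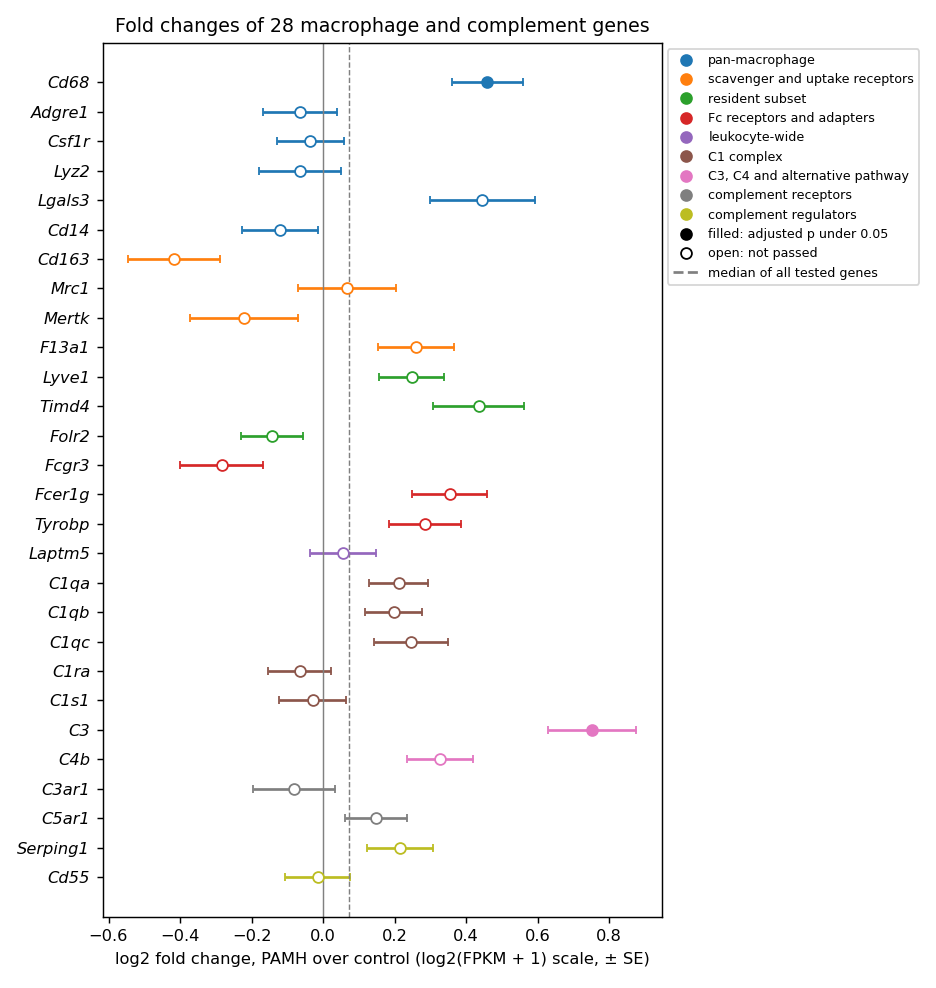
Log2 fold change of each tested gene, PAMH over control, on the log2(FPKM + 1) scale (x axis, points with SE bars), coloured by role. Filled points passed an adjusted p of 0.05, which only Cd68 (0.46) and C3 (0.75) did, while Cd163 lay lowest at -0.42.

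Cd68, which encodes a glycoprotein of the lysosomes and endosomes of macrophages, was the macrophage gene that rose (chromosome 11, 69664213 to 69666153, minus strand, GRCm38). PAMH replicates 1 to 5 had 4.46, 5.02, 5.49, 4.14 and 6.15 FPKM, and control replicates 1 to 5 had 3.36, 3.84, 3.32, 2.86 and 3.54 FPKM. Every PAMH heart lay above every control heart, averaging 5.05 ± 0.803 FPKM in PAMH against 3.38 ± 0.355 FPKM in control hearts (SD, n = 5 each). The log2 fold change was 0.46, with an SE of 0.10 and an adjusted p of 0.0187. The call held in 15 of 20 other settings and ended with no filter on low values, with median ratio scaling, with quantile normalization, without control replicate 3 and without control replicate 4, where the adjusted p was 0.0616, 0.0724, 0.0772, 0.0522 and 0.0530. In whole tissue, more cells of a type and more RNA per cell cannot be told apart.

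The other general macrophage genes did not pass. Adgre1, the gene of the F4/80 antigen, had 3.09, 2.54, 3.75, 3.45 and 2.94 FPKM in PAMH and 3.20, 2.92, 2.86, 4.17 and 3.60 FPKM in control hearts (adjusted p = 0.738). Csf1r, the receptor on which macrophage survival depends, had 5.74, 5.39, 4.51, 6.67 and 4.83 FPKM in PAMH and 4.99, 6.09, 5.50, 5.50 and 5.68 FPKM in control hearts (adjusted p = 0.848). The groups overlapped widely for both, with log2 fold changes of -0.06 (SE 0.10) and -0.04 (SE 0.09), and the sign for Csf1r turned with rescaling to the same sum. Csf1r overlaps Hmgxb3 on the opposite strand over 873 bases at its end, where unstranded reads could come from either gene. Lyz2, the lysozyme gene of myeloid cells and the most abundant gene of the set, averaged 104 ± 14.0 FPKM in PAMH and 109 ± 15.0 FPKM in control hearts (adjusted p = 0.771). Its near-identical neighbour Lyz1 averaged 0.410 FPKM in PAMH and 0.627 FPKM in control hearts, and reads shared by the pair make both uncertain. Lgals3, the galectin-3 gene of activated macrophages, had 1.68, 1.02, 2.33, 2.22 and 2.72 FPKM in PAMH and 1.05, 0.911, 1.14, 1.21 and 1.48 FPKM in control hearts (log2 fold change 0.45, SE 0.15, adjusted p = 0.0880), and PAMH replicate 2 at 1.02 FPKM was within the control range. Without that replicate its adjusted p was 0.0182. Cd14, a co-receptor for bacterial lipopolysaccharide, averaged 2.45 ± 0.252 FPKM in PAMH and 2.77 ± 0.545 FPKM in control hearts (adjusted p = 0.521).

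Among receptors for uptake, Cd163 had the lowest log2 fold change of the set. CD163 takes up hemoglobin bound to haptoglobin and marks resident macrophages. Its gene (chromosome 6, 124304656 to 124330527, plus strand) had 2.93, 2.36, 2.28, 1.56 and 3.10 FPKM in PAMH and 3.32, 2.98, 3.38, 4.49 and 3.64 FPKM in control hearts. The groups overlapped only through PAMH replicate 5, above control replicate 2, and the log2 fold change was -0.42 (SE 0.13, adjusted p = 0.0741). It passed with quantile normalization alone among 20 other settings (adjusted p = 0.0366). The mannose receptor gene Mrc1 averaged 3.50 ± 0.896 FPKM in PAMH and 3.25 ± 0.547 FPKM in control hearts, and Mertk, whose kinase receptor recognises dying cells, ranged from 0.343 to 1.46 FPKM in PAMH and from 1.06 to 1.75 FPKM in control hearts. Neither passed (adjusted p = 0.798 for Mrc1 and 0.400 for Mertk), and PAMH replicate 4 had the lowest value of all 10 samples for both, at 2.24 and 0.343 FPKM. F13a1, the coagulation factor XIII subunit made by resident macrophages and platelets, had 8.80, 6.58, 9.22, 7.14 and 10.2 FPKM in PAMH and 6.38, 6.34, 6.61, 7.23 and 7.31 FPKM in control hearts (log2 fold change 0.26, SE 0.11, adjusted p = 0.158).

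Markers of the resident subset had both signs. Timd4, whose product binds phosphatidylserine on dying cells, had 0.937, 1.57, 1.23, 0.907 and 1.99 FPKM in PAMH and 0.493, 0.838, 0.543, 0.809 and 0.836 FPKM in control hearts (chromosome 11, 46810800 to 46844332, plus strand). All PAMH values lay above all control values, by a narrow margin between PAMH replicate 4 and control replicate 2, and the log2 fold change was 0.43 (SE 0.13, adjusted p = 0.0637). The gene averaged 0.704 FPKM in controls and entered the test only through its PAMH values. It passed after scaling all samples to equal FPKM sums and without PAMH replicate 4 (adjusted p = 0.0454 and 0.0322). Lyve1, a hyaluronan receptor that lymphatic endothelium also carries, had 12.7, 9.30, 9.79, 10.9 and 12.2 FPKM in PAMH and 8.28, 8.62, 9.71, 9.59 and 9.03 FPKM in control hearts (log2 fold change 0.25, SE 0.09, adjusted p = 0.119). The 5 lymphatic endothelial markers summed to 17.2 to 26.3 FPKM in PAMH and 17.7 to 24.7 FPKM in control hearts, most of it from Ccl21a, which averaged 13.4 FPKM in PAMH and 13.2 FPKM in control hearts. Of the others, Prox1 averaged 4.23 ± 0.682 FPKM in PAMH and 3.18 ± 0.193 FPKM in control hearts without overlap (adjusted p = 0.0552), and Pdpn averaged 1.77 ± 0.184 FPKM in PAMH and 1.32 ± 0.359 FPKM in control hearts (adjusted p = 0.1299). Flt4 averaged 1.43 FPKM in PAMH and 1.69 FPKM in control hearts, and Mmrn1 overlapped. The part of lymphatic cells in the Lyve1 values was not tested. Folr2, the folate receptor beta gene, averaged 6.06 ± 0.736 in PAMH and 6.77 ± 0.536 FPKM in control hearts (log2 fold change -0.14, SE 0.09, adjusted p = 0.337).

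The 2 signalling adapters of activating Fc and lectin-like receptors had positive fold changes, and the receptor Fcgr3 a negative one. Fcer1g, the shared gamma chain, had 5.98, 5.18, 6.19, 6.07 and 7.92 FPKM in PAMH and 4.39, 4.49, 4.003, 5.57 and 4.91 FPKM in control hearts. Only PAMH replicate 2 lay within the control range, and the log2 fold change was 0.35 (SE 0.10, adjusted p = 0.0639). Tyrobp, the DAP12 adapter gene, had 11.9, 10.02, 13.8, 15.0 and 14.0 FPKM in PAMH and 9.67, 9.65, 10.6, 10.6 and 11.4 FPKM in control hearts, again with PAMH replicate 2 inside the control range (log2 fold change 0.28, SE 0.10, adjusted p = 0.109). Without PAMH replicate 2 both passed (adjusted p = 0.0483 for Fcer1g and 0.0352 for Tyrobp), and Fcer1g also passed with the same-sum scaling and the filter at 5 FPKM. Fcgr3, a low-affinity IgG receptor that needs the gamma chain, had 8.34, 5.59, 7.06, 6.52 and 6.83 FPKM in PAMH and 9.46, 9.08, 7.49, 6.80 and 10.1 FPKM in control hearts (log2 fold change -0.28, SE 0.12, adjusted p = 0.159). Its inhibitory relative Fcgr2b had the same sign, at 1.398 ± 0.199 FPKM in PAMH and 1.68 ± 0.366 FPKM in control hearts (adjusted p = 0.392).

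**Figure D2:**
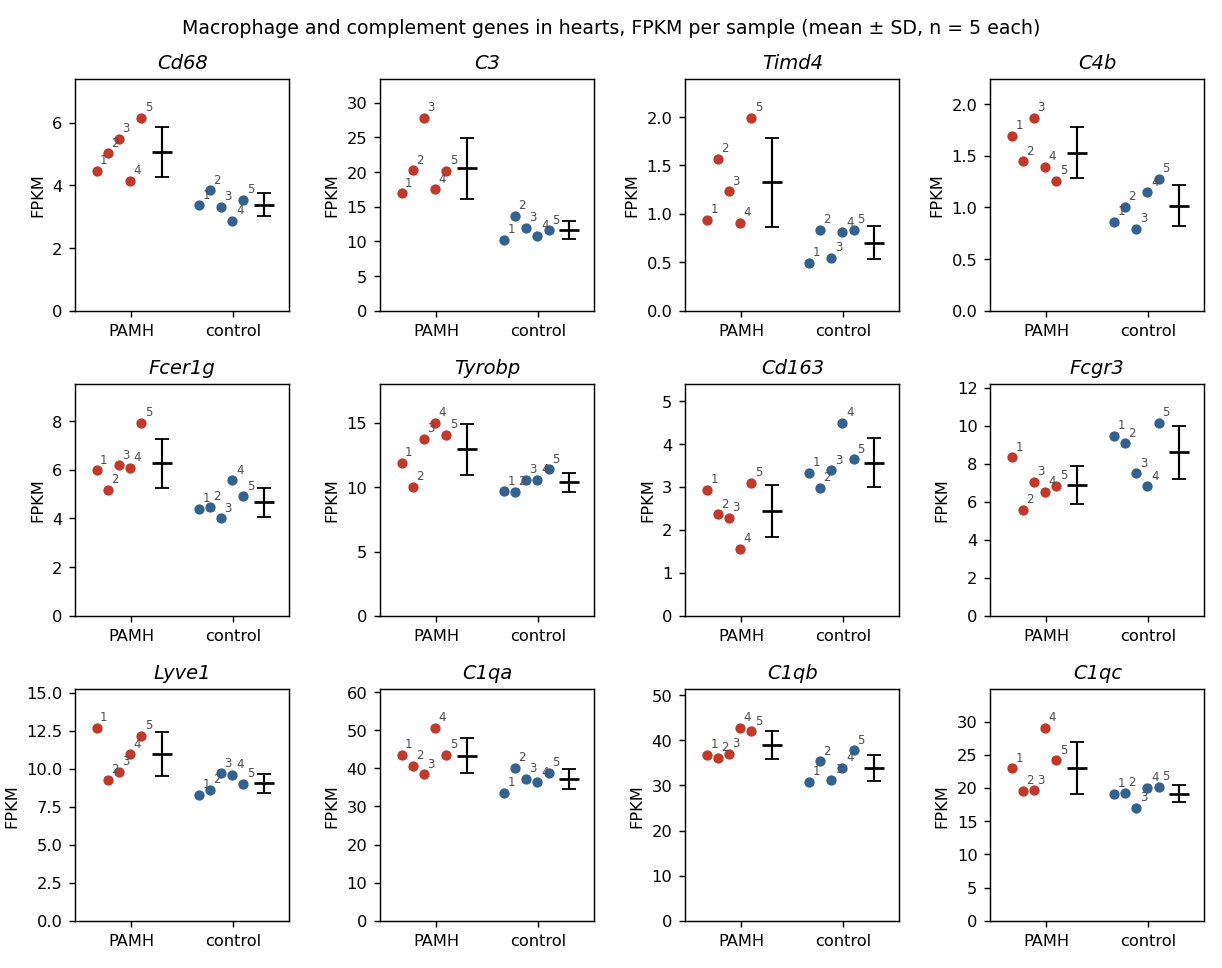
FPKM (y axis, from 0) of 12 genes in each PAMH (red) and control (blue) heart, numbered by replicate, with mean ± SD (n = 5 each). Only Cd68, C3 and Timd4 showed no overlap between the groups. Cd163 overlapped only through PAMH replicate 5, and Fcgr3 had a lower mean in PAMH hearts with wider overlap.

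The remaining leukocyte genes, except Laptm5, averaged under 1 FPKM and were not tested. Laptm5, a lysosomal protein gene of blood cells, averaged 3.49 ± 0.408 in PAMH and 3.32 ± 0.458 FPKM in control hearts (adjusted p = 0.756). Ptprc, the CD45 gene of all white blood cells, was listed at 0.0678 to 0.203 FPKM in PAMH and 0.109 to 0.257 FPKM in control hearts, far below Tyrobp at 9.65 to 15.0 FPKM on the same per-length scale. Ccr2, the receptor that draws monocytes to tissue, was listed at 0.104, 0.102, 0.149, 0 and 0.154 FPKM in PAMH and 0.1504, 0.0937, 0.116, 0.183 and 0.223 FPKM in control hearts. Fcgr1, the high-affinity IgG receptor gene, ranged from 0.221 to 0.988 FPKM in PAMH and from 0.365 to 0.621 FPKM in control hearts. Cx3cr1, the fractalkine receptor gene, averaged 0.293 ± 0.0786 FPKM in PAMH and 0.555 ± 0.307 FPKM in control hearts, but its annotated span overlaps expressed genes on both strands, among them Xirp1, which averaged 17.8 FPKM, so its values are uncertain. Itgam, the CD11b gene, averaged 0.545 ± 0.398 FPKM in PAMH and 0.762 ± 0.207 FPKM in control hearts. It shares 55809 bases and its strand with Gm49368, and the sum of both genes had the opposite order, at 1.15 ± 0.155 FPKM in PAMH and 0.914 ± 0.185 FPKM in control hearts. With no filter on low values, none of these 5 genes passed (adjusted p from 0.446 for Cx3cr1 to 0.729 for Ptprc), in a test that called 0.987% of 26758 genes.

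C1q is built from 3 chains whose genes lie side by side on chromosome 4 (C1qb at 136880129 to 136886187, C1qc at 136889804 to 136893065, C1qa at 136895917 to 136898803, all on the minus strand). C1qa had 43.5, 40.6, 38.4, 50.6 and 43.5 FPKM in PAMH and 33.5, 40.1, 37.2, 36.3 and 38.9 FPKM in control hearts. C1qb had 36.8, 36.04, 37.01, 42.7 and 41.98 FPKM in PAMH and 30.8, 35.3, 31.3, 33.9 and 37.8 FPKM in control hearts. C1qc had 22.96, 19.5, 19.6, 29.03 and 24.2 FPKM in PAMH and 19.1, 19.3, 17.02, 19.98 and 20.2 FPKM in control hearts. The 3 log2 fold changes were close together, at 0.21, 0.20 and 0.25 (SE 0.08, 0.08 and 0.10), and none passed (adjusted p = 0.142, 0.152 and 0.172). They remained positive in all 21 other settings, down to 0.08, 0.07 and 0.11. PAMH replicate 4 was the highest of all 10 samples for each chain, and the groups overlapped for each. Within a heart C1qa stood at 1.04 to 1.184 times C1qb in PAMH and 1.03 to 1.19 times in control hearts. Of the proteases that C1q activates, C1ra averaged 2.71 ± 0.438 FPKM in PAMH and 2.86 ± 0.187 FPKM in control hearts (adjusted p = 0.690). C1s1 averaged 4.54 ± 0.643 FPKM in PAMH and 4.64 ± 0.497 FPKM in control hearts (adjusted p = 0.880), and its sign turned with the same-sum scaling. Their close copies C1rb and C1s2 averaged at most 0.114 FPKM in either group.

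C3, the central protein of the cascade, had the largest log2 fold change of the set on the log2(FPKM + 1) scale (chromosome 17, 57203970 to 57228136, minus strand). It had 16.9, 20.3, 27.8, 17.5 and 20.2 FPKM in PAMH and 10.2, 13.7, 11.9999, 10.8 and 11.6 FPKM in control hearts. The groups were separate, with PAMH replicate 3 highest and no control above the lowest PAMH heart, and C3 rose 1.76-fold in mean FPKM, with 20.5 ± 4.35 in PAMH and 11.7 ± 1.31 in control hearts (log2 fold change 0.75, SE 0.12, adjusted p = 0.00599). It passed in all 21 other settings, with an adjusted p of at most 0.0332 and a log2 fold change of 0.63 to 0.82. PAMH replicate 3 also had the highest mesothelial marker sum (7.38 FPKM). That sum was at least 2.85 FPKM in every PAMH heart and at most 1.21 FPKM in every control. Without PAMH replicate 3 the adjusted p of C3 was 0.00291, in a fit that called 11.9% of all tested genes against 6.19% with all samples. The part of surface cells in the C3 values was not tested, since leaving out 1 heart keeps the groups apart in that sum. Fibroblast markers summed to 283 to 400.1 FPKM in PAMH and 331 to 368 FPKM in control hearts, and none of 8 passed. C4b, whose product is cleaved by the C1 proteases (chromosome 17, 34728380 to 34743882, minus strand), had 1.69, 1.45, 1.87, 1.39 and 1.26 FPKM in PAMH and 0.859, 1.01, 0.795, 1.15 and 1.28 FPKM in control hearts. PAMH replicate 5 lay just below control replicate 5, and the log2 fold change of 0.33 narrowly missed the threshold (SE 0.09, adjusted p = 0.0551), passing in 5 of 20 other settings, among them those without PAMH replicate 4 (adjusted p = 0.0491). The near-identical gene C4a averaged 0.0157 FPKM in PAMH and 0.00637 FPKM in control hearts, and reads shared by the copies make this split uncertain.

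The promoters of the 2 genes that passed and of Cd163, which had the lowest fold change, are shown as the RefSeq sequence (GRCm38.p6) of the 250 bases before the gene start, in the direction of the gene. Both strands were searched for the PU.1 core GAGGAA. The C/EBP pattern was TTGCNNAA. The TATA box was searched as TATAAA, and capitals mark every match, none of which overlapped another. The windows are chr17:57228137-57228386 for C3, chr11:69666171-69666420 for Cd68, both on the minus strand, and chr6:124304401-124304650 on the plus strand for Cd163.
C3: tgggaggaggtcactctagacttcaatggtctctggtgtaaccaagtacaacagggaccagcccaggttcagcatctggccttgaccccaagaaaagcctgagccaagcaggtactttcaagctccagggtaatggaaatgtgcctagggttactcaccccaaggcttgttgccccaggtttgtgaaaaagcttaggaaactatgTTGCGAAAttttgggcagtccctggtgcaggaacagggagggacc
Cd68: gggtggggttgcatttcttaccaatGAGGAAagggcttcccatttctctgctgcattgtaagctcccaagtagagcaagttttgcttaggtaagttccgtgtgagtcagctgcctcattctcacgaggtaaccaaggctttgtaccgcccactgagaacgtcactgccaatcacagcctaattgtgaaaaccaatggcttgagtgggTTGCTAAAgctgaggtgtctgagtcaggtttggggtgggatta
Cd163: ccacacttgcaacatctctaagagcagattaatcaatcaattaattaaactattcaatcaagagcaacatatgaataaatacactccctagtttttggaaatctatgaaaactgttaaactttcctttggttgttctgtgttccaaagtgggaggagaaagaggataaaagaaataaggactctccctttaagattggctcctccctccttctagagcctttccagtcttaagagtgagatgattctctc
The C3 and Cd68 windows each held the C/EBP pattern in the gene's own direction, at 45 to 38 and 43 to 36 bases before the start, and 9.56% of all 32851 promoter windows of this length held it. Cd68 also held GAGGAA at 225 to 220 bases before the start, a pattern in 23.3% of all windows. The Cd163 window held none of the 3 patterns. Of the 35 genes 26 had a promoter entry, with 31 windows in all. Among these genes 4 held the C/EBP pattern in any of their windows (C1s1, C3, Cd68 and Fcgr3) and 10 held GAGGAA. These are counts of genes, whereas the shares above are of windows. A match describes the letters only.

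The alternative pathway genes averaged under 1 FPKM and were not tested. Cfd (factor D, in mice also the adipocyte protein adipsin) was listed at 0, 0.165, 0.736, 0 and 0 FPKM in PAMH and 0.0610, 0.172, 0, 0.252 and 0.0574 FPKM in control hearts. The 5 markers of fat cells were as low, with a sum of 0 to 0.634 FPKM in PAMH and 0 to 0.221 FPKM in control hearts. Cfb, factor B, was listed at 0.115, 0.547, 1.39, 0 and 0.155 FPKM in PAMH and 0.429, 0.0399, 0.338, 0.346 and 0.411 FPKM in control hearts. Both were highest in PAMH replicate 3, the heart with the highest C3 and also the highest fat cell sum (0.634 FPKM). Among controls, replicate 4 had the highest Cfd (0.252 FPKM) and the highest fat cell sum (0.221 FPKM). The part of fat cells in the Cfd values was not tested.

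The receptors of the cleavage products did not pass. C3ar1 averaged 1.29 ± 0.365 in PAMH and 1.40 ± 0.164 FPKM in control hearts, and its sign turned without PAMH replicate 4, which had 0.673 FPKM. C5ar1 averaged 1.99 ± 0.288 FPKM in PAMH and 1.70 ± 0.217 FPKM in control hearts (adjusted p = 0.707 for C3ar1 and 0.323 for C5ar1). Of the inhibitors, Serping1, the gene of the C1 inhibitor that blocks C1r and C1s, had 26.7, 26.1, 21.8, 31.7 and 23.7 FPKM in PAMH and 22.3, 23.7, 21.9, 20.9 and 21.8 FPKM in control hearts (log2 fold change 0.21, SE 0.09, adjusted p = 0.179). PAMH replicates 3 and 5 lay within the control range. Cd55, which dissociates the C3 convertase, averaged 1.295 ± 0.275 FPKM in PAMH and 1.31 ± 0.1301 FPKM in control hearts (log2 fold change -0.02, SE 0.09).

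The hearts of a group did not share 1 profile across these genes. PAMH replicate 4 held the highest of the 10 values for 7 of the 28 tested genes (among them C1qa, C1qb, C1qc, Tyrobp and Serping1) and the lowest for 6 (Cd163, Mrc1, Mertk, C1ra, C1s1 and C3ar1). The longest annotated transcript had a median length of 1203 bases in the first set and 4304 bases in the second. In that sample log2 levels over all tested genes changed by -0.08 per doubling of transcript length relative to the mean of the samples, against -0.03 in PAMH replicate 5 and 0.00 to 0.03 in the other 8. With each sample's trend on length and GC content removed, a setting chosen after seeing the data, Cd68 and C3 passed, C4b passed as well (adjusted p = 0.0342) and Cd163 did not (adjusted p = 0.0653). PAMH replicate 5 was highest for a different 7 genes, including Cd68, Timd4, Lgals3 and Fcer1g, and PAMH replicate 2 was lowest for 5, including Adgre1, Lyz2 and Fcgr3. Control replicates 1 and 3 were each lowest for 5 genes and highest for none.

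**Figure D3:**
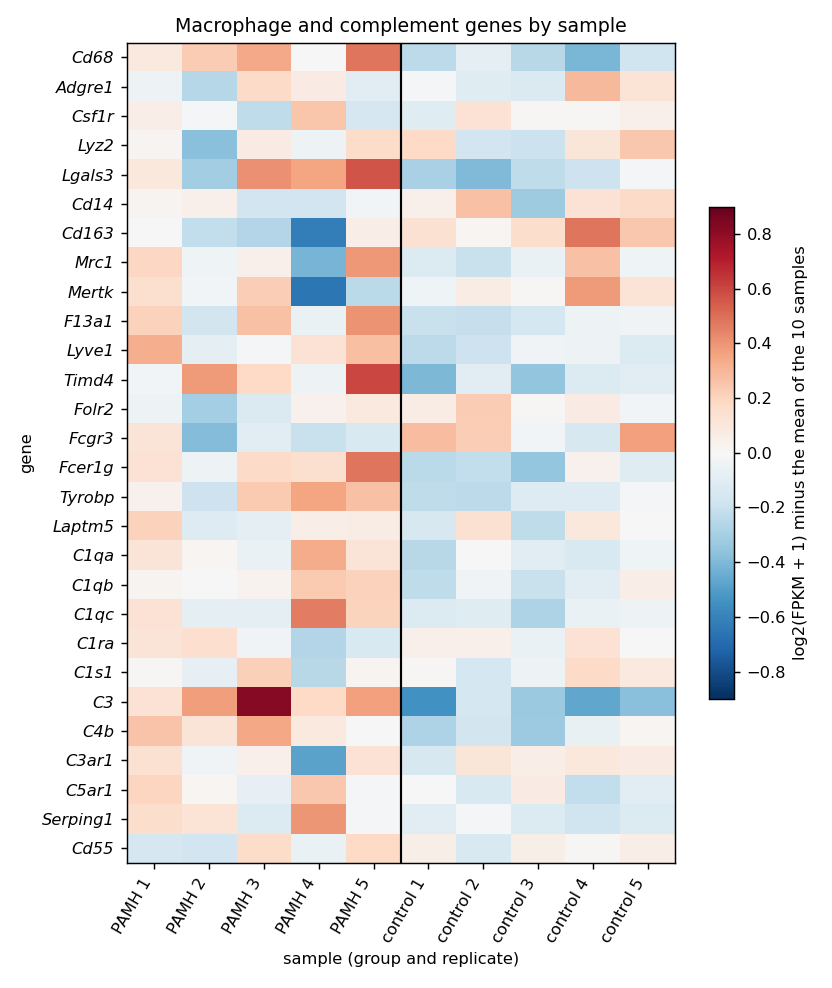
Each tested gene (rows, ordered by role) in each heart (columns, PAMH left of the line, control right), coloured by log2(FPKM + 1) minus the mean of the 10 samples. C3 and Cd68 were at or above their mean in every PAMH heart and below it in every control, whereas PAMH replicate 4 was high for the C1q chains and low for Cd163 and Mertk.

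Ratios between genes of the same heart do not depend on a scaling by 1 factor per sample. They can change with quantile normalization or with removal of a trend on length and GC content. They are given as a description, since the pairs were chosen after the values were seen. The Cd163 to Cd68 ratio was 0.657, 0.471, 0.415, 0.376 and 0.503 in PAMH and 0.987, 0.778, 1.02, 1.57 and 1.03 in control hearts, with no overlap. The longest transcript of Cd163 has 4443 bases and that of Cd68 1230 bases. PAMH replicate 4, the heart with the steepest length trend (-0.08), had the lowest ratio, at 0.376. PAMH replicate 5, with a weaker trend of the same sign (-0.03), had 0.503, and the remaining PAMH hearts had 0.415 to 0.657. The part of transcript length in this ratio was not tested. The Fcgr3 to Fcer1g ratio was 1.39, 1.08, 1.14, 1.07 and 0.862 in PAMH and 2.15, 2.02, 1.87, 1.22 and 2.07 in control hearts, where control replicate 4 overlapped the PAMH range. C3 relative to C1qb was 0.410 to 0.752 in PAMH and 0.307 to 0.387 in control hearts, also without overlap, whereas C3 relative to Serping1 overlapped, at 0.552 to 1.28 in PAMH and 0.459 to 0.575 in control hearts. The Timd4 to Lyve1 and Tyrobp to Fcer1g ratios overlapped as well.

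**Figure D4:**
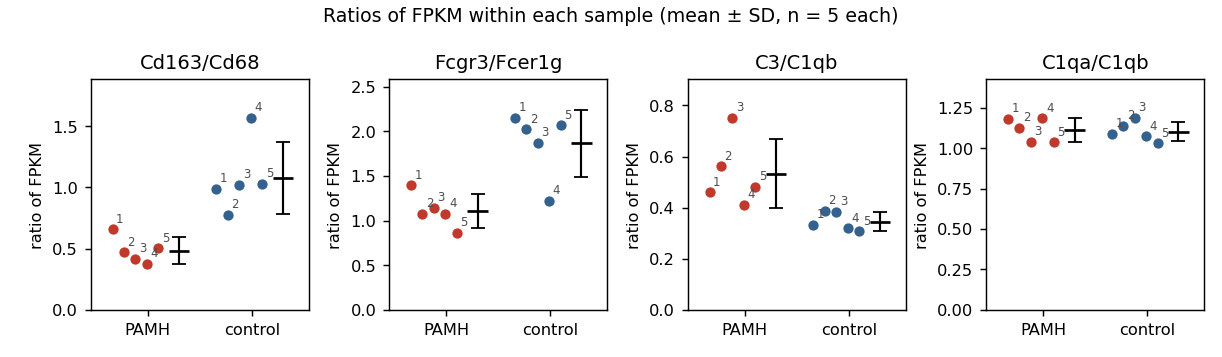
Ratios of FPKM within each PAMH (red) and control (blue) heart (y axis, from 0), numbered by replicate, with mean ± SD (n = 5 each). Cd163/Cd68 was lower and C3/C1qb higher in all PAMH hearts, while C1qa/C1qb stayed between 1.03 and 1.19 in both groups.

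Of 58 further genes listed with macrophages 26 were tested, and 4 were higher, 1 lower and 21 did not pass. That is 19.2% called, against 6.19% of all tested genes (4.95% higher and 1.24% lower). The list was chosen with earlier results of these data known. It also holds signals that act on these cells and genes of leukocytes in general, so the share is not one of macrophage markers alone. Csf1, the growth factor that binds CSF1R, had 4.45, 4.82, 3.88, 5.13 and 5.72 FPKM in PAMH and 2.69, 3.36, 3.18, 3.03 and 3.12 FPKM in control hearts, and rose without overlap (log2 fold change 0.50, SE 0.09, adjusted p = 0.00909). Ccl7, a chemokine that acts on CCR2, rose to 2.29 ± 0.797 FPKM in PAMH hearts, against 0.742 ± 0.250 FPKM in controls (log2 fold change 0.90, SE 0.15, adjusted p = 0.00634), and entered the test through its PAMH values. Coro1a, an actin-binding protein gene of leukocytes, rose to 2.86 ± 0.421 FPKM in PAMH hearts, against 1.71 ± 0.185 FPKM in controls (log2 fold change 0.51, adjusted p = 0.00808). Csf1, Ccl7 and Coro1a passed in all 20 other settings that tested them. Cbr2, a carbonyl reductase gene of resident macrophages, rose to 14.1 ± 3.19 FPKM in PAMH hearts, against 9.69 ± 0.571 FPKM in controls (log2 fold change 0.47, adjusted p = 0.0370), and lost its call in 11 of 21 other settings, with an adjusted p of 0.0517 to 0.0924 without PAMH replicate 1 or 5 or any 1 of the controls, 0.0641 with the replicate block, 0.0887 with median ratio scaling, 0.0735 with quantile normalization and 0.111 with no filter. Spi1, the PU.1 gene, averaged 1.23 ± 0.154 in PAMH and 1.37 ± 0.224 FPKM in control hearts (adjusted p = 0.572). The list's median log2 fold change was 0.08, beside 0.07 for all tested genes.

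**Figure D5:**
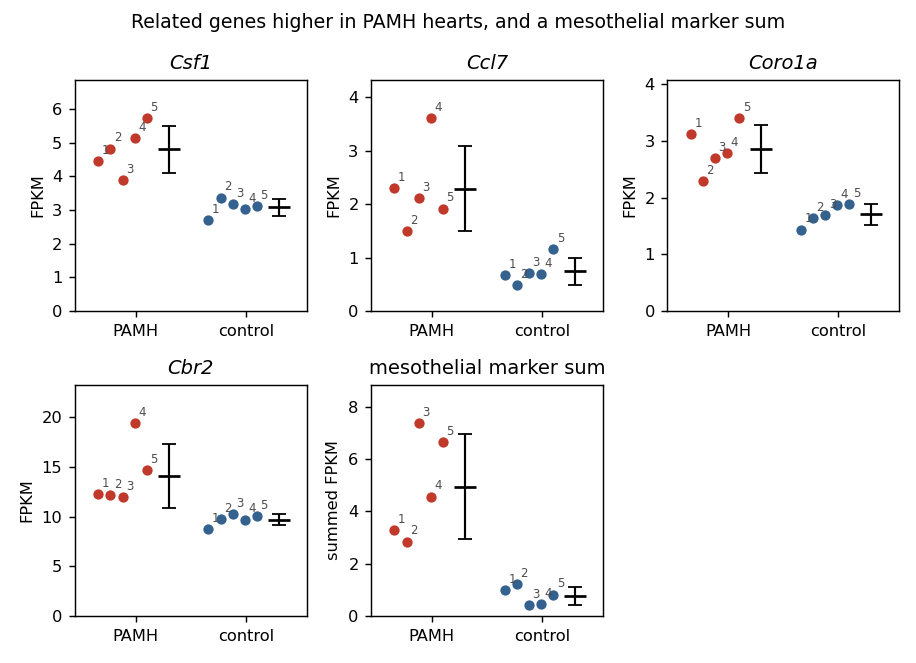
FPKM (y axis, from 0) of the 4 genes of the further macrophage list that were higher, and the summed FPKM of 6 mesothelial markers. Points are PAMH (red) and control (blue) hearts with mean ± SD (n = 5 each). Csf1, Ccl7, Coro1a and Cbr2, shown because they passed, lay higher in every PAMH heart than in any control, as did 6.74% of all tested genes. The marker sum was 2.85 to 7.38 FPKM in PAMH against 0.404 to 1.21 FPKM in control hearts.

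Of 40 further complement genes 14 were tested and none passed, while 5 had an unadjusted p under 0.05 (3 positive and 2 negative), which is 35.7% against 24.0% of all tested genes (19.6% positive and 4.34% negative). Closest were Colec11, a recognition protein of the lectin pathway, at 7.55 ± 0.962 in PAMH and 5.71 ± 0.659 FPKM in control hearts (log2 fold change 0.35, adjusted p = 0.0503), and Clu, clusterin, an inhibitor of the terminal complex, at 98.4 ± 15.2 in PAMH against 72.0 ± 11.2 FPKM in control hearts (log2 fold change 0.45, adjusted p = 0.0548). The median log2 fold change of this list was 0.08, beside 0.07 for all tested genes. Among markers of other blood cells, T cell markers summed to 0.207 to 0.436 FPKM in PAMH and 0.329 to 0.711 FPKM in control hearts, and NK cell markers to 0 to 0.315 FPKM in PAMH and 0.000254 to 0.808 FPKM in control hearts. B cell markers summed to 1.88 to 3.10 FPKM in PAMH and 2.17 to 4.31 FPKM in control hearts, and the dendritic cell, mast cell and platelet sums overlapped as well. Endothelial markers summed to 66.3 to 82.03 FPKM in PAMH and 72.99 to 89.8 FPKM in control hearts, and hepatocyte markers to at most 0.658 FPKM in PAMH and 0.230 FPKM in control hearts. The neutrophil markers summed to 0.776 to 5.07 FPKM in PAMH and 0.353 to 3.19 FPKM in control hearts, with Ly6g and Camp at 0 in all 10 samples and the highest sum in PAMH replicate 3.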

How the data were processed

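The authors deposited 1 table of FPKM for 55335 Ensembl genes in 10 heart samples. The submitters' processing notes name build mm10 and, with no role or order, HTSeq 0.13.5 and HISAT2 2.2.1 among the tools, beside DESeq2 1.18.1, R 3.4.1, Trimmomatic 0.38 and FastQC 0.11.9. Annotation, strand setting and the step that made the FPKM: not given in the sources used here. Genes with several annotated transcripts had values of more than 6 decimals in 98.8% of cases, against 1.31% of genes with 1 transcript, so whole reads could not be recovered. Depth is unknown, and no interval that needs it is given. GENCODE vM21 named 55154 genes. Groups came from sample titles and columns from sample descriptions.

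Genes averaging 1 FPKM or more were tested on log2(FPKM + 1), which understates changes of low genes, with limma 3.58.1 in R 4.3.3 (group term, intensity trend, 2-sided, Benjamini-Hochberg over all tested genes, threshold 0.05). The procedure was checked on data simulated with independent noise for each gene. These held no trend on length and no shared shift between samples, so the check does not cover either. All 35 genes are accounted for; values per sample are given for those with an unadjusted p under 0.05, without overlap, or defining their class, and by range or mean for others. Related genes were named where they passed, except 1 that is not reported here; Spi1, Prox1, Pdpn, Flt4, Ccl21a, Clu, Colec11, Fcgr2b and the close copies were chosen after their values were seen. The genes and lists were chosen with earlier results of these data known. Figures were drawn with matplotlib 3.10.9.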

Additional observations from a re-analysis of the deposited data

Results flagged for a closer look

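In 6 of 82 group-and-gene combinations 1 sample stood far from the other 4 of its group, by a gap of more than 0.710 of the group's range; chance gives about 1 in 20. PAMH replicate 3 had 1.24 FPKM of Itgam, against 0.289 to 0.517 in the other PAMH hearts, and 0.736 FPKM of Cfd, against 0 to 0.165. Among controls, replicate 4 had 0.257 FPKM of Ptprc (others 0.109 to 0.143), replicate 2 had 0.0399 FPKM of Cfb (others 0.338 to 0.429) and 1.08 FPKM of Cd55 (others 1.31 to 1.396), and replicate 1 had 1.11 FPKM of C3ar1 (others 1.44 to 1.52). Neither Cd68 nor C3 had a sample past that cut. The highest C3 value, 27.8 FPKM in PAMH replicate 3, stood against 16.9 to 20.3 FPKM in the other PAMH hearts.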

How the results depend on the processing

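Of the recomputed fold changes of genes of the set under 21 alternatives, 533 kept their sign and side of the threshold, 13 passed newly, 5 no longer passed and 18 changed sign. Over all genes 584 passed; the count was 264 with no filter, 239 with the replicate block (175 higher, 64 lower), 357 without PAMH replicates 4 and 5, 883 with the length and GC trend removed (added after seeing the data) and 274 (without control replicate 3) to 1126 (without PAMH replicate 3) when 1 sample was left out. Of the set, 2 genes were higher; the count was 1 with no filter (C3), 5 with the same FPKM sum, 1 with median ratio scaling (C3) and 1 to 5 with 1 sample left out, and 1 (Cd163) was lower with quantile normalization. Without PAMH replicate 2 the 5 were Cd68, Lgals3, Fcer1g, Tyrobp and C3. Of the related genes 5 passed, beside Upk3b among the markers of other cell types. Over these lists together the count was 3 with the filter at 5 FPKM. It was 4 to 12 with 1 sample left out, the highest without PAMH replicate 3. The median log2 fold change of 0.11 was 0.21 with the filter at 5 FPKM, 0.037 with median ratio scaling, 0.035 with quantile normalization and 0.045 to 0.13 with 1 sample left out.

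Signs changed only near 0. With the same sum they were 0.0056 for Csf1r, 0.0094 for C1s1 and 0.010 for Cd55; with median ratio scaling -0.0069 for Mrc1 and -0.022 for Laptm5; with quantile normalization -0.018 for Laptm5; without PAMH replicates 4 and 5, 0.0033 for Mertk, 0.046 for C1ra, 0.036 for C1s1 and 0.010 for C3ar1. Leaving 1 sample out gave -0.10 to 0.018 for Csf1r, -0.12 to 0.021 for Lyz2, -0.022 to 0.18 for Mrc1, -0.086 to 0.030 for C1s1, -0.13 to 0.029 for C3ar1 and -0.062 to 0.026 for Cd55. The cause was not tested.

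Replicate numbers did not pair the samples: deviations of same-numbered hearts correlated at 0.09, 0.16, -0.04, -0.19 and -0.04 for numbers 1 to 5. With the replicate block Cd68 and C3 passed. Timd4 left the test without PAMH replicate 2, 3 or 5. Unknown depth limits the reading of genes under 1 FPKM.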

Other observations

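Itgam shares nearly its whole span and its strand with the annotated gene Gm49368, over 55809 bases (chromosome 7, 128062683 to 128118491), so reads cannot be assigned to either with certainty. Itgam alone averaged 0.545 FPKM in PAMH and 0.762 FPKM in control hearts, while Gm49368 averaged 0.603 FPKM in PAMH and 0.152 FPKM in control hearts. Their sum was 1.29, 0.996, 1.24, 1.25 and 0.962 FPKM in PAMH hearts (mean 1.15 ± 0.155) and 0.892, 0.805, 0.690, 1.01 and 1.17 FPKM in control hearts (mean 0.914 ± 0.185), so the order of the groups was the reverse of that for Itgam alone. The outlying Itgam value of PAMH replicate 3 lay within the range of the other PAMH hearts once the 2 genes were added. No test was run on this sum, which was formed after the values were seen.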
